A study of Mus musculus with 19 samples.

Results

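The genes described here are 10 genes known from the macrophages of the splenic red pulp and marginal zone, Spic, Adgre1, Hmox1, Slc40a1, Cd163, Vcam1, Cd5l, Axl, Siglec1 and Marco. They were taken by gene symbol from 27179 genes in the expression table. All 10 were present and all 10 were among the 14186 genes tested, those with an RPKM (reads per kilobase of exon, scaled to the reads of the library) of at least 0.5 in at least 4 mice.

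Red pulp macrophages take up aged red blood cells, open the heme ring and return its iron to the blood, and they depend on the transcription factor Spi-C. Macrophages of the marginal zone sit where blood enters the white pulp and carry receptors that bind bacteria and particles. Both kinds are held in the tissue by adhesion, and the share of them that enters a cell suspension depends on how the spleen is dissociated.

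The study compared spleen RNA of FCG mice, a model in which the type of gonad is separated from the sex chromosomes, at 1 week after intraperitoneal immunization with heat-killed Streptococcus pneumoniae (HKSP) of the unencapsulated strain R36A. Females with ovaries were XX (XXF, n = 5) or XY (XYF, n = 4), and males with testes were XX (XXM, n = 5) or XY (XYM, n = 5). Each mouse gave 1 library from splenocytes, obtained by pressing spleens through a strainer and lysing red blood cells with ammonium chloride, with no enzyme named. All groups received HKSP, and no unimmunized mice were analysed here.

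FCG mice came from a cross of C57BL/6J females with FCG males, which carry the alleles Tg(Sry)2Ei and Sry dl1Rlb. Their Y chromosome lacks Sry, the testis-determining gene, and a transgene with Sry lies on chromosome 3 in males only, so that an effect of testes, of the transgene and of where it sits cannot be told apart. Vcam1 and Cd5l lie on that chromosome too. The XX and XY mice of this cross also differed at Tlr7 and Tlr8, neighbouring X-linked genes lower in XX mice, with log2 differences over both gonadal sexes of -1.27 (adjusted p = 0.00068 from limma) and -1.36 (adjusted p = 0.00503). The sources used here give neither the age of the sequenced mice nor whether any of them had surgery, and they name no batch. The running numbers of the libraries keep each group together and only the titles of XXM libraries carry an extra tag, so that effects of group and of handling the groups apart cannot be told apart. The study's methods name a KAPA stranded kit and the sample records a NEBNext Ultra kit.

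Libraries held between 14595060 and 17644859 reads in XXF mice, 11263748 and 19040730 in XYF mice, 12119962 and 18099711 in XXM mice, and 15887402 and 19961993 in XYM mice, as recovered from the steps of the values. At this depth the members rested on between 20 reads (Siglec1 in XXM 2) and 14095 reads (Hmox1 in XYF F7) per mouse. Reads of Xist, the Y-linked genes and Sry went against the recorded group in 0 of 19 mice. The suspension held lymphocytes, myeloid and erythroid cells by their markers, whereas stroma and endothelium were scarce, with 5 of 17 listed genes passing the filter and Ccl21a without a read.

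A few libraries stood apart. XYF F7 had the highest level of 7 of the 10 members among the 19 mice. XXM 7 was the highest XXM mouse for all members except Cd163 and Marco, by the widest margins in Hmox1, Slc40a1 and Cd5l. XYF F9 and XYM 9 were far above all other mice in the summed RPKM of 14 neutrophil genes (60407 and 62634, the next highest being 17354) and of 10 monocyte genes (1561 and 1895, the next highest being 572). Where the call of a member changes without XYF F9 and XYM 9, or without XYF F7 and XXM 7, its value without them is given. Both sets were chosen after seeing the data.

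Hmox1 was the most abundant member, at a mean RPKM over 19 mice of 269, followed by Slc40a1 (94.5), Vcam1 (91.1), Cd5l (48.1), Spic (41.8), Axl (26.5), Adgre1 (24.3), Marco (12.2), Cd163 (4.59) and Siglec1 (0.743). Slc40a1 and Vcam1, Cd5l and Spic, and Axl and Adgre1 were neighbours in this order that did not differ beyond their spread over mice. Hmox1 lay above Slc40a1, and Spic above Axl, within every mouse. Positions of genes are from RefSeq on GRCm38 (mm10), the build of the alignment. Every member had reads in every mouse, and the highest mouse exceeded the lowest between 3.41-fold (Adgre1) and 8.34-fold (Siglec1).

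**Figure D1:**
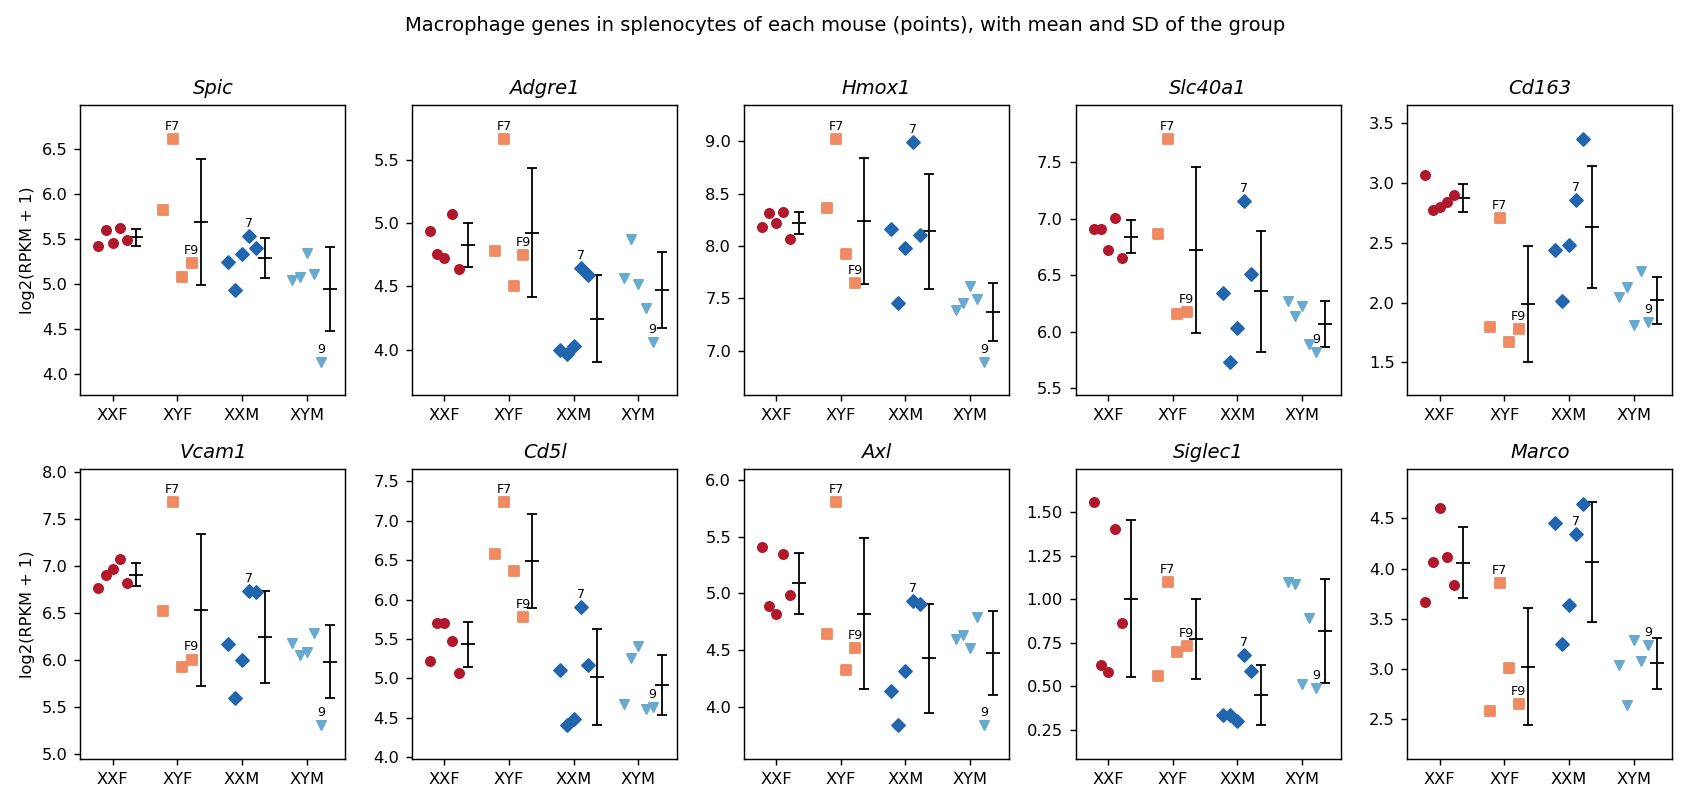
Expression of the 10 members in each mouse. The vertical axis is log2(RPKM + 1), each point is a mouse of the group named on the horizontal axis, and black bars are the mean and SD of the group; mice that stood apart are labelled. Cd163 and Marco are high in most XX mice of both gonadal sexes, Cd5l is high in XYF mice, and XYF F7 is the highest mouse for 7 members.

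Promoters of 5 members were found in the RefSeq table (GRCm38.p6), Spic, Cd163, Cd5l, Axl and Marco, each from 250 bases before to 50 bases after a start listed there, which for Cd163 (124304651) and Axl (25788733) lies inside the span of the gene given below. Those of Cd163 and Marco are shown because these members differed between XX and XY mice, and that of Spic because it held the only match. The motifs searched on both strands were the antioxidant response element core TGACNNNGC, the ETS core GGAAGT, the PU.1 and Spi-C type GAGGAAGT, which contains the ETS core, and the interferon response type. Of 32851 promoters of the same length, 12.4%, 23.8%, 3.20% and 3.44% held them in that order. The sequences are written 5′ to 3′, and capitals mark the ETS core match. Spic is on the minus strand (chr10:88682974-88683273), Cd163 on the plus strand (chr6:124304401-124304700) and Marco on the minus strand (chr1:120504975-120505274).
Spic: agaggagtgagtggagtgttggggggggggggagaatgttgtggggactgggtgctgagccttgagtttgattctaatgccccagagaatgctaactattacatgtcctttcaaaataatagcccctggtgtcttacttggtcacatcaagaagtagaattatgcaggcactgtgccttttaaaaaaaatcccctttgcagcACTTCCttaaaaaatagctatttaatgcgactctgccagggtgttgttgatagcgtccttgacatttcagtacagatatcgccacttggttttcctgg
Cd163: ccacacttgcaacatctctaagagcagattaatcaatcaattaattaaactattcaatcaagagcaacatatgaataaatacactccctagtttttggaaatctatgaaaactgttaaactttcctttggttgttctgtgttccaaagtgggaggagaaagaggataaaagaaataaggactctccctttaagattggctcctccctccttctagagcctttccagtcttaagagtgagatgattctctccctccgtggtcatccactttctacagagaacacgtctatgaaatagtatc
Marco: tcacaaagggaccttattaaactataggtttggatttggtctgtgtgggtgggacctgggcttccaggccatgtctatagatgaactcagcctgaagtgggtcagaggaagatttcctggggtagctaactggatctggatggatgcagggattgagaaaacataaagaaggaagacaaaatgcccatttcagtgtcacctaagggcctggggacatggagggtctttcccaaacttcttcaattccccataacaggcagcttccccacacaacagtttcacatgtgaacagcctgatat
The match in Spic lies on the opposite strand at -48 from that start, and a match of these letters is a description of the sequence only. The other motifs were not found in the 5 windows, and none of the ETS core in the windows of Cd163, Cd5l, Axl and Marco.

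Between XX and XY mice, the members that differed were Cd163 and Marco, both higher in XX mice, while Cd5l was lower in XXF than in XYF mice and Hmox1 higher in XXM than in XYM mice. These calls of Cd5l and Hmox1 were kept in only 8 and 11 of 27 refits. Against females, males had lower levels of Vcam1 and Cd5l, and 5 further members passed the adjusted p with smaller differences in the same direction. The difference was largest for Cd5l, with a wide gap between XY groups and a small one between XX groups. Its mean log2(RPKM + 1) was 6.49 in XYF and 4.92 in XYM mice, against 5.44 in XXF and 5.02 in XXM mice. With all mice, the difference between these gaps was not called (-1.15, adjusted p = 0.15 from limma). The threshold for a call was an adjusted p under 0.1 (limma, Benjamini-Hochberg over all 14186 genes) together with a difference in log2(RPKM + 1) beyond a fold change of 1.5. Differences on this scale understate the change of Siglec1 and Cd163, whose levels are low. In splenocytes as a bulk sample, fewer cells of a type and less RNA per cell cannot be told apart.

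The members and the gene lists used below were chosen with earlier results of these data known. Their counts beside those of all genes are therefore descriptions and no test of the sets. In females, 2 of 10 members were called higher in XX mice, where 0.670% of all genes tested were, and 1 was called lower, where 0.712% were. In males 2 were called higher (1.13% of all genes) and 0 lower by limma (1.83%), with 3 members higher and 0 lower at an unadjusted p under 0.05. Of all 14186 genes, 3846 had such a p in males in either direction, a share close to that of the members. Over both gonadal sexes 2 members were called higher (0.515% of all genes) and 0 lower by limma (1.21%), with 2 higher and 1 lower at an unadjusted p under 0.05. There, 3234 of all 14186 genes had such a p in either direction, again a share near that of the members. limma-voom on recovered reads called 0 members lower in XX mice in males and over both. The median log2 difference of the members was 0.17 in females, 0.27 in males and 0.15 over both, against 0.06, 0.01 and 0.03 over all genes tested. In males against females, 2 members were called lower (5.36% of all genes), and 7 passed the adjusted p with a lower level in males at any fold (18.1% of all genes). The median of the 10 members was -0.49 against 0.02 over all genes, with 9 of 10 members below 0. Under median ratio rescaling of the libraries, the calls over all genes in females split into 65 higher and 119 lower in XX, against 95 and 101 as deposited, and Marco was no longer called there. The shares over all genes also moved with single mice. With a mouse left out, between 56 (without XYF F9) and 850 (without XYF F7) of all genes were called in females, against 95 higher and 101 lower with all mice. In males the number lay between 51 (without XXM 2) and 1213 (without XYM 15), against 161 higher and 259 lower. Over both gonadal sexes it lay between 148 (without XYF F9) and 518 (without XYF F7), against 73 higher and 171 lower. For males against females it lay between 837 (without XYF F6) and 1253 (without XYM 9), against 278 higher and 761 lower in males.

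**Figure D2:**
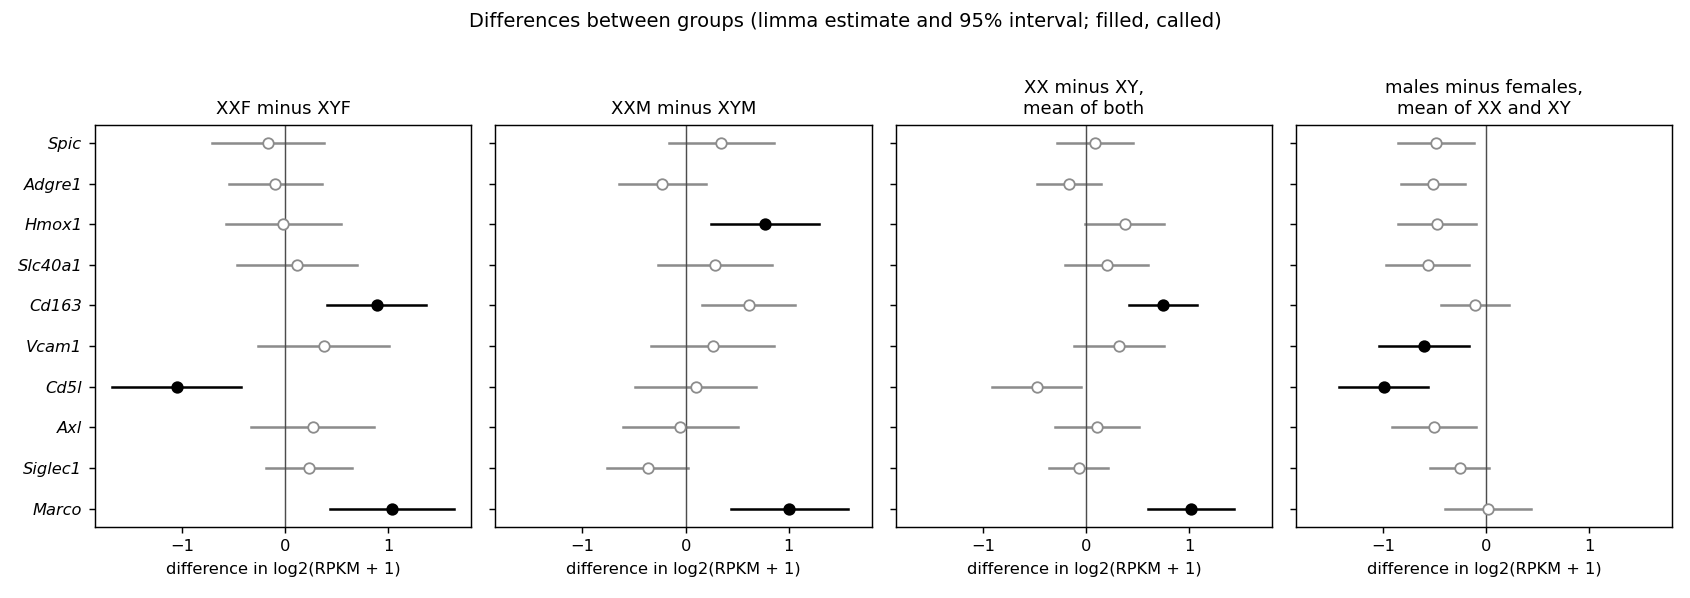
Differences between groups in log2(RPKM + 1) for each member, with the limma estimate as a point and its 95% interval as a line; filled points are called at an adjusted p under 0.1 and a fold change over 1.5. Cd163 (0.75) and Marco (1.02) lie to the right in XX minus XY over both gonadal sexes, and 9 of 10 members lie left of 0 in males minus females.

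Spic (Entrez 20728, chr10:88675269-88683023), the ETS transcription factor that red pulp macrophages require, reached an RPKM of 41.9, 47.6, 42.8, 48.5 and 43.9 in XXF mice and 55.8, 97.1, 32.8 and 36.5 in XYF mice. It was 37.0, 29.5, 39.5, 45.2 and 41.3 in XXM mice and 32.1, 32.8, 39.5, 33.6 and 16.6 in XYM mice. XXF mice were close together, XYF mice lay on both sides of them, and XYM 9 was the lowest mouse of all. XX minus XY, the log2 difference was -0.17 in females (95% interval -0.71 to 0.37) and 0.35 in males (-0.16 to 0.86). Males minus females it was -0.49 (SE 0.18, adjusted p = 0.0472), short of the fold threshold, and 3 of 10 males lay below all females. Adgre1 (Entrez 13733, chr17:57358581-57483529), which encodes the F4/80 antigen, ranged from 21.6 to 49.8 in females and from 14.6 to 28.3 in males. Males differed from females by -0.52 on the log2 scale (SE 0.15, adjusted p = 0.0155), under the fold threshold, with 5 of 10 males below all females, and between XX and XY mice over both gonadal sexes it was -0.16 (95% interval -0.47 to 0.15).

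Hmox1 (Entrez 15368, chr8:75093618-75100593), whose product heme oxygenase 1 opens the heme ring, was at an RPKM of 285, 174, 252, 508 and 274 in XXM mice and 166, 174, 195, 179 and 118 in XYM mice. XXM 7 was far above the others, XXM 5 lay among the XYM mice, and the remaining XXM mice were above all XYM mice. The log2 difference in males was 0.77 (SE 0.25, adjusted p = 0.0932), with 4 of 5 XXM mice above all XYM mice. The call was kept in 11 of 27 refits, with adjusted p values between 0.0523 and 0.208. It fell short of the fold threshold without XXM 7 (0.56), as it did without XYF F7 and XXM 7 (0.56), and was 0.65 without XYF F9 and XYM 9 (adjusted p = 0.0906). In XXF mice Hmox1 ranged from 266 to 319 and in XYF mice from 199 to 520, a log2 difference of -0.02 (95% interval -0.58 to 0.54). Slc40a1 (Entrez 53945, chr1:45908070-45926532), which encodes the iron exporter ferroportin, had the same highest mice, XYF F7 (208) and XXM 7 (142), and a log2 difference between XX and XY mice over both gonadal sexes of 0.20 (95% interval -0.20 to 0.60). Males minus females, log2 differences were -0.48 for Hmox1 (SE 0.18, adjusted p = 0.0567) and -0.57 for Slc40a1 (SE 0.19, adjusted p = 0.0348), both under the fold threshold. Hmox1 and Slc40a1 each had 9 of 10 males below the mean of the females. The difference of Slc40a1 passed that threshold in 9 of 26 refits, which were median ratio rescaling, without XYF F9 and XYM 9 (-0.63), and without XXF F5, XYF F8 or F9, XXM 7 or 8, or XYM 12 or 15 alone. Without XYF F8, Spic (-0.59) and Adgre1 (-0.59) passed it too. By contrast, the difference of Hmox1 without XYF F7 alone was -0.35 (adjusted p = 0.127).

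Cd163 (Entrez 93671, chr6:124304636-124330529), the receptor for complexes of haptoglobin and hemoglobin, was at an RPKM of 7.34, 5.84, 5.93, 6.17 and 6.43 in XXF mice and 2.47, 5.53, 2.18 and 2.43 in XYF mice. It was 4.41, 3.03, 4.59, 6.22 and 9.32 in XXM mice and 3.12, 3.38, 2.51, 3.80 and 2.57 in XYM mice. Every XXF mouse lay above every XYF mouse, by a wide margin except for XYF F7, and XXM 5 alone of the XXM mice lay among the XYM mice. In log2(RPKM + 1) the group means were 2.87 ± 0.11 (SD, n = 5), 1.99 ± 0.48 (SD, n = 4), 2.63 ± 0.51 (SD, n = 5) and 2.02 ± 0.19 (SD, n = 5) for XXF, XYF, XXM and XYM. Over both gonadal sexes the log2 difference was 0.75 (SE 0.16, adjusted p = 0.0156), and 10 of 10 XX mice exceeded the XY mean. The call was kept in all 26 refits tried, with adjusted p values between 0.0016 and 0.0537, and the difference was 0.69 without XYF F9 and XYM 9 and 0.84 without XYF F7 and XXM 7. In females alone it was 0.89 (SE 0.23, adjusted p = 0.0729), but not called without XYF F9 and XYM 9 (0.82, adjusted p = 0.196). That call was kept in 18 of 27 refits, with adjusted p values between 0.0117 and 0.266. In males the difference was 0.61 (SE 0.22, adjusted p = 0.108), with 4 of 5 XXM mice above all XYM mice. This difference was called without XYF F7 alone and without XYF F9 alone. Males minus females it was -0.11 (95% interval -0.44 to 0.22).

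Vcam1 (Entrez 22329, chr3:116110020-116129688), an adhesion molecule that binds the integrin alpha4 beta1, was at an RPKM of 108, 119, 125, 135 and 112 in XXF mice and 91.4, 204, 59.8 and 63.4 in XYF mice. It was 71.3, 47.6, 63.1, 106 and 105 in XXM mice and 71.7, 65.7, 67.3, 77.4 and 38.6 in XYM mice. XXF mice lay above every male, whereas XYF mice, apart from XYF F7, lay in the range of the males. Males differed from females by -0.60 on the log2 scale (SE 0.21, adjusted p = 0.038), with 10 of 10 males below the mean of the females. This was called in 20 of 26 refits, with adjusted p values between 0.0192 and 0.0695. It fell under the fold threshold without XYF F7 (-0.41), and without XYF F7 and XXM 7 it was -0.47 (adjusted p = 0.042). Without XYF F9 and XYM 9 it was -0.61 and stayed called. XX minus XY, the difference was 0.37 in females (95% interval -0.26 to 1.01) and 0.32 over both gonadal sexes (-0.12 to 0.75). In females Vcam1 was called higher in XX without XYF F7, and without XYF F7 and XXM 7 (0.76, adjusted p = 0.0797), where 5.40% of all genes were called.

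Cd5l (Entrez 11801, chr3:87357881-87371074), a secreted scavenger receptor cysteine-rich protein made by macrophages, was at an RPKM of 36.4, 51.0, 51.2, 43.7 and 32.5 in XXF mice and 94.5, 149.6, 81.2 and 54.1 in XYF mice. It was 33.5, 20.2, 21.5, 58.9 and 35.2 in XXM mice and 24.7, 37.4, 41.4, 23.5 and 23.8 in XYM mice. Every XYF mouse lay above every XXF mouse, closest for XYF F9, and XXM 7 was the only male within the range of the XYF mice. XXF minus XYF, the log2 difference came to -1.05 (SE 0.30, adjusted p = 0.098), close to the threshold, with 5 of 5 XXF mice below all XYF mice. It was called in 8 of 27 refits, with adjusted p values between 0.0721 and 0.246. It was -1.29 without XYF F9 and XYM 9 (adjusted p = 0.0731) and -0.81 without XYF F7 and XXM 7 (adjusted p = 0.0777). In males it was 0.10 (95% interval -0.49 to 0.69). For males against females, over XX and XY together, it was -0.99 (SE 0.20, adjusted p = 0.00238), with 9 of 10 males below the mean of the females. It was called in all 26 refits, with adjusted p values between 0.000761 and 0.00638. The mean log2(RPKM + 1) was 5.44 in XXF, 6.49 in XYF, 5.02 in XXM and 4.92 in XYM mice. XXF and XXM mice overlapped, whereas XYF mice lay above all XYM mice. The difference between these gaps (-1.15, adjusted p = 0.15 from limma) was not called with all mice. Of the genes tested on chromosome 3, where Cd5l, Vcam1 and the transgene lie, 39 of 625 were called lower in males (6.24%), against 5.36% of all genes.

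Axl (Entrez 26362, chr7:25756500-25788924), a receptor tyrosine kinase that binds Gas6 and takes part in the clearance of dying cells, ranged from 27.1 to 41.4 in XXF mice, 19.1 to 54.8 in XYF mice, 13.3 to 29.6 in XXM mice and 13.3 to 26.8 in XYM mice. Males minus females, its log2 difference was -0.50 (SE 0.19, adjusted p = 0.06), under the fold threshold, with 10 of 10 males below the mean of the females. Without XYF F7 it was -0.34 (adjusted p = 0.129). Between XX and XY mice over both gonadal sexes it was 0.11 (95% interval -0.30 to 0.52).

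Marco (Entrez 17167, chr1:120474538-120505024), a class A scavenger receptor of marginal zone macrophages, was at an RPKM of 11.7, 15.7, 23.3, 16.3 and 13.3 in XXF mice and 4.96, 13.5, 7.07 and 5.27 in XYF mice. It was 20.9, 8.47, 11.4, 19.3 and 24.0 in XXM mice and 7.23, 5.25, 8.79, 7.43 and 8.40 in XYM mice. XYF F7 lay among the XXF mice and XXM 5 among the XYM mice, and apart from them XX and XY mice with the same gonads were separated. The mean log2(RPKM + 1) was 4.06 ± 0.35 (SD, n = 5), 3.02 ± 0.59 (SD, n = 4), 4.06 ± 0.60 (SD, n = 5) and 3.06 ± 0.25 (SD, n = 5) for XXF, XYF, XXM and XYM. Over both gonadal sexes the log2 difference was 1.02 (SE 0.20, adjusted p = 0.00864), with 10 of 10 XX mice over the XY mean. It was called in all 26 refits, with adjusted p values between 0.00133 and 0.0277. The difference was 0.98 without XYF F9 and XYM 9 and 1.12 without XYF F7 and XXM 7. In females it was 1.04 (SE 0.29, adjusted p = 0.0936), kept in 9 of 27 refits (adjusted p values between 0.019 and 0.347) and not called without XYF F9 and XYM 9 (0.91, adjusted p = 0.247). In males it was 1.01 (SE 0.27, adjusted p = 0.0719), kept in 21 of 27 refits (adjusted p values between 0.0368 and 0.191). Of the XXM mice, 4 of 5 lay above all XYM mice, and of the XXF mice 3 of 5 above all XYF mice. Male and female levels differed by 0.02 (95% interval -0.40 to 0.44).

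Siglec1 (Entrez 20612, chr2:131067801-131086778), the sialic acid-binding receptor sialoadhesin (CD169) of marginal metallophilic macrophages, was at an RPKM of 1.94, 0.537, 0.493, 1.64 and 0.816 in XXF mice and 0.473, 1.14, 0.619 and 0.658 in XYF mice. It was 0.258, 0.262, 0.233, 0.600 and 0.502 in XXM mice and 1.14, 1.12, 0.427, 0.856 and 0.402 in XYM mice. XXF and XYM mice were spread widely, and XXM 2, XXM 5 and XXM 6 were the lowest mice. The log2 difference was 0.23 in females (95% interval -0.18 to 0.65), -0.37 in males (-0.76 to 0.02) and -0.26 between males and females (-0.54 to 0.03), none of them called.

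Whether XX effects differed between the gonadal sexes was tested as the difference of the effect in females and that in males. None of the 10 members was called by limma (0.0846% of all genes were, in either direction), and limma-voom on recovered reads called 0. At an unadjusted p under 0.05 there were 3 members, Cd5l (-1.15, SE 0.41, adjusted p = 0.15), Hmox1 (-0.79, adjusted p = 0.223) and Siglec1 (0.60, adjusted p = 0.219). The number of all genes called moved with single mice, from 12 with all mice to 1694 without XYM 9 and, by limma, 0 without XXF F1 (2979 had an unadjusted p under 0.05 with all mice, and limma-voom called 4). Cd5l was called without XYF F9 and XYM 9 (-1.31, adjusted p = 0.0968), where 5.51% of all genes were. For Cd163 and Marco the differences of the effects were 0.27 (95% interval -0.39 to 0.93) and 0.03 (-0.80 to 0.86). With all mice, a call in females or in males alone was therefore not shown to differ from the other for any member.

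Markers of other cells moved with the same comparisons, and their part in the members' differences was not tested. Between XX and XY mice over both gonadal sexes, 6 of 7 NK cell genes were called higher in XX mice, with a median log2 difference of 1.10, led in abundance by Gzma at a mean RPKM of 201. Their summed RPKM was 405, 439, 430, 544 and 504 in XXF mice and 153, 252, 174 and 87.5 in XYF mice. It was 411, 344, 422, 396 and 358 in XXM mice and 212, 210, 303, 173 and 67.2 in XYM mice, so that XX and XY mice with the same gonads did not overlap. Of 14 neutrophil genes, 4 were called lower in XX mice, Lcn2 (-1.56), Mpo (-1.70), Elane (-1.47) and Prtn3 (-1.67), with S100a9 the most abundant (4978). The neutrophil sum was 4923, 4047, 5615, 5330 and 4679 in XXF mice, 13752, 17354, 8415 and 60407 in XYF mice, 6949, 5995, 8065, 5357 and 4754 in XXM mice, and 3438, 10084, 4331, 4296 and 62634 in XYM mice. Without XYF F9 alone limma called 0 neutrophil genes over both gonadal sexes (9 had an unadjusted p under 0.05 with all mice, and limma-voom called 4). Without XYF F9 and XYM 9, 5 NK cell genes were called higher and 4 neutrophil genes lower over both, but the neutrophil genes then differed between the gonadal sexes. In females 7 were called lower in XX (median -1.38), in males Retnlg was called higher (0.93) with a median of 0.23, and 6 were called for the difference of these effects.

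Within females, where Cd163, Marco and Cd5l were called, 6 NK cell genes were higher in XXF than in XYF mice (median 1.26), and Prtn3 was called lower among the neutrophil genes (median -2.01). With each mouse left out, between 2 (without XYF F9) and 6 NK cell genes and between 0 and 10 neutrophil genes were called. Of the B cell genes, Cr2 (0.79) and Blk (0.76) were called higher in XXF mice and all 10 lay above 0 (median 0.45), with 5 called without XYF F7 and XXM 7. Over both gonadal sexes Cr2 was called (0.59), with 4 B cell genes called without XYF F7 and XXM 7, whereas without XYF F9 and XYM 9 Cr2 over both (0.48) and Blk in females (0.56) were under the fold threshold. With each mouse left out, between 1 and 5 B cell genes were called in females and between 0 and 4 over both, the highest counts being without XYF F7. Also in XXF mice, all 10 T cell genes lay above 0 (median 0.43) and all 10 erythroid genes below 0 (median -0.67), opposite to males, with 0 called in either list by limma or limma-voom (2 T cell genes and 1 erythroid gene had an unadjusted p under 0.05 in limma). The difference of the effects between the gonadal sexes was called for 0 of them with all mice by limma or limma-voom (6 T cell genes and 2 erythroid genes at an unadjusted p under 0.05). Without XYF F9 and XYM 9 it was called for 5 T cell genes and 2 erythroid genes. Within males, where Pax5 was the B cell gene called higher in XX (0.90) and where Hmox1 and Marco were called too, 3 NK cell genes were higher in XXM than in XYM mice (Klrb1c, Gzma and Klra8; median 0.74). Of the T cell genes, 5 were called lower in XXM mice, Cd4 (-0.69), Cd8a (-0.77), Cd8b1 (-0.83), Il7r (-0.74) and Tcf7 (-0.78), and all 10 lay below 0. Without XYF F7 and XXM 7 the count was 4, with Cd8b1 no longer called (-0.67, adjusted p = 0.101). Of the erythroid genes, Hba-a1 (1.55) and Hba-a2 (1.52) were called higher in XXM mice, and all 10 lay above 0. Without XYF F9 and XYM 9, 5 erythroid genes were called higher and 5 T cell genes lower in XXM mice. With each mouse left out, between 1 and 5 NK cell genes, between 0 and 5 T cell genes and between 0 and 5 erythroid genes were called. All T cell and erythroid calls in males were lost without XXM 2, 5 or 6 or XYM 12, 13 or 16. Without XXF F5, 2 T cell calls remained and all erythroid calls were lost, and 1 erythroid call remained without XXF F2, XXF F4 or XXM 8. Between 0 and 2 B cell genes were called, with the call of Pax5 lost without XXM 2, 5 or 6 or XYM 12, 13 or 16.

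In males against females, all 10 erythroid genes tested were called lower in males (median -1.52), with Hbb-bs the most abundant at a mean RPKM of 10150. Their sum was 12875, 19737, 28867, 22892 and 16369 in XXF mice, 48285, 20157, 15877 and 36657 in XYF mice, 12373, 9735, 7673, 7359 and 14601 in XXM mice, and 2310, 6878, 5049, 1603 and 14788 in XYM mice. Of 10 T cell genes 9 were called lower in males (median -1.21), with Trac the most abundant (215). Their sum was 1452, 1877, 1677, 1459 and 1743 in XXF mice, 1352, 1735, 1345 and 697 in XYF mice, 597, 647, 576, 459 and 461 in XXM mice, and 728, 672, 877, 824 and 430 in XYM mice. Of 10 B cell genes 8 were called higher in males (median 0.67), with Cd79b the most abundant (865). The count was 5 without XYF F9, 10 without XYF F7, and 6 without XYF F9 and XYM 9, when Pax5 (0.56) and Blk (0.57) fell under the fold threshold. Their sum was 3820, 3308, 2822, 3540 and 3380 in XXF mice, 1836, 3061, 3339 and 1696 in XYF mice, 4469, 5124, 4873, 4988 and 4482 in XXM mice, and 5162, 4101, 4756, 5059 and 2914 in XYM mice. None of these NK cell, neutrophil, erythroid, T cell and B cell genes was without reads over the 19 mice. RPKM values share a total, so that a larger share of 1 cell type lowers the values of the others.

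**Figure D3:**
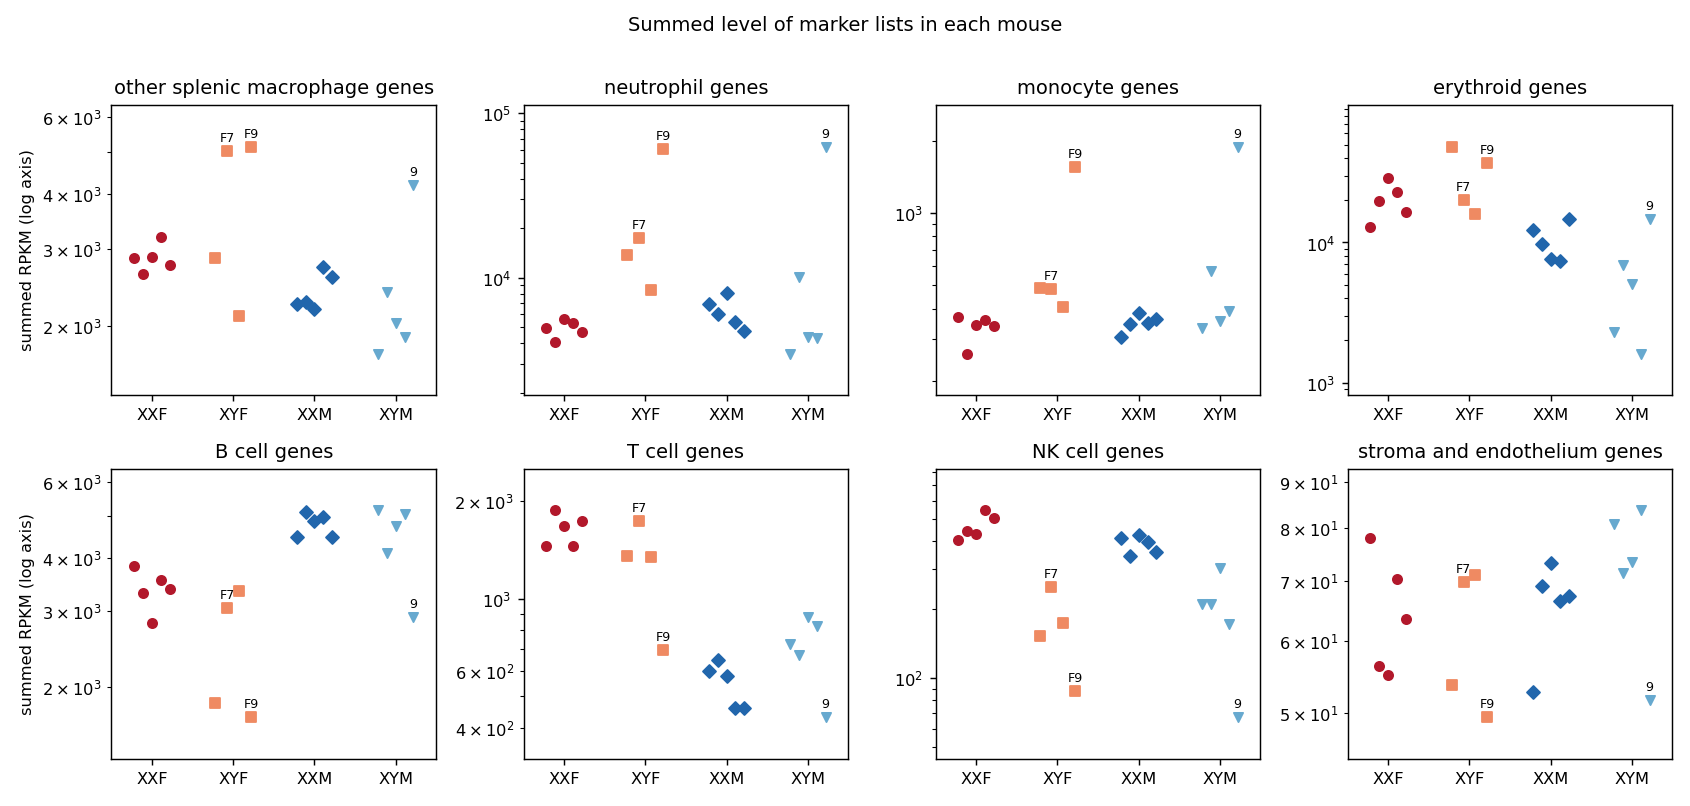
Summed RPKM of 8 lists of marker genes in each mouse, on a log axis, by group on the horizontal axis. XYF F9 (60407) and XYM 9 (62634) stand above all others in neutrophil genes, XX mice lie above XY mice with the same gonads in NK cell genes, and erythroid sums are lower in most males.

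Of 30 other genes of splenic macrophages, a list also chosen with earlier results known, 29 were tested. In males 15 of them were called lower than in females and 26 lay below 0, with a median log2 difference of -0.59 against 0.02 over all genes. The count was 8 without XYF F7, 13 without XYF F7 and XXM 7, and 12 without XYF F9 and XYM 9. Examples are the complement genes C1qb (-1.22, SE 0.23, adjusted p = 0.00117) and C1qa (-1.05), Nr1h3 (-1.05), which encodes a nuclear receptor that red pulp and marginal zone macrophages use, and Itgad (-0.68), which encodes the integrin alpha D of red pulp macrophages. Lyz2 was the most abundant of the list (1137) and, with -0.31 (adjusted p = 0.47), was not called. Their summed RPKM lay between 1722 (XYM 12) and 5138 (XYF F9). Between XX and XY mice over both gonadal sexes 1 of the 29 was called, Pparg, a nuclear receptor, lower in XX (-0.78, SE 0.12, adjusted p = 0.00145), and the median was -0.05.

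Of 31 genes of heme and iron handling 28 were tested, and 7 were called lower in males, Blvrb (-1.09), Nqo1, Gclm (-0.98), Tfrc (-0.92), Steap3 (-0.74), Trf (-0.66) and Slc11a1 (-0.62). Under the fold threshold were Slc11a1 without XYF F9 and XYM 9 (-0.55) and Trf without XYF F7 and XXM 7 (-0.49). Newly called were Blvra (-0.62) and Slc25a37 (-0.60) without XYF F9 and XYM 9. Without XYF F7 and XXM 7, Slc48a1 (-0.59) and Slc25a37 (-0.79) were, so that 8 genes were called under either set. Blvrb encodes the biliverdin reductase B of red cells and other tissues, and Tfrc and Steap3 serve iron uptake of erythroid precursors, whose markers were lower in males too. The part of erythroid cells in the differences of this list was not tested. The ferritin genes Fth1, the most abundant (1232), and Ftl1 had log2 differences of -0.41 and -0.43 (adjusted p = 0.0043 and 0.00437), under the fold threshold. Over both gonadal sexes Cp, which encodes the ferroxidase ceruloplasmin, was lower in XX mice (-0.63, adjusted p = 0.00103), a call kept without either set of mice and lost without XYM 13. Of 20 genes of Axl-related receptors and engulfment, 19 were tested, and Calr was the most abundant (262). Between males and females limma called 0 of them (2 higher and 4 lower in males at an unadjusted p under 0.05, and 1 called by limma-voom), with a median of -0.14. XX against XY over both gonadal sexes limma called 0 (1 higher and 2 lower at an unadjusted p under 0.05, and 1 called by limma-voom). In females Pros1, which encodes a ligand of the Axl-related receptors Tyro3 and Mertk, was lower in XX (-0.88), but not called without XYF F9 and XYM 9 (-0.63, adjusted p = 0.165) or without any of XXF F1, F2, F4 and F5 and XYF F6 and F9. Without XYF F7 and XXM 7, Pros1 was called lower in XX in females (-1.11, adjusted p = 0.0145) and over both gonadal sexes (-0.66, adjusted p = 0.0146), by limma. Of 17 known partners of the members, 15 were tested. Spib (0.79) and Irf4 (0.73), which encode transcription factors also found in B cells, were higher in males, and were called under both sets of left-out mice. Ltb, the most abundant (484), was higher in XX mice over both gonadal sexes (0.62), but not called without XYF F9 and XYM 9 (0.44, adjusted p = 0.186). That call was kept in 10 of 19 refits that left out a mouse each, and lost without XXF F2, F3 or F5, XYF F9, XXM 2 or 5, or XYM 9, 13 or 16.

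The members, which were chosen together, varied together within groups. Across 19 mice, after subtracting the mean of each group, 44 of 45 pairs of members had a positive Pearson r in log2(RPKM + 1), with a median of 0.70. At an adjusted p under 0.1, by a two-sided permutation test within groups with adjustment over the 45 pairs, 38 pairs passed, all positive, and 32 passed by Spearman's rho. No share over other gene pairs is given, so these counts are not shown to be particular to the members. The closest pair was Hmox1 with Slc40a1 (r = 0.933, permutation p = 0.00011, adjusted p = 0.0009; rho = 0.818, permutation p = 0.00084), and without XYF F7 and XXM 7, the mice farthest from the median of Hmox1, r was 0.853. Vcam1 with Axl gave r = 0.916 (permutation p = 0.00036; rho = 0.839, permutation p = 0.00145) and 0.844 without XYF F7 and XYM 9. Cd163 with Marco gave r = 0.604 (permutation p = 0.0546, adjusted p = 0.0683; rho = 0.389, permutation p = 0.168), and 0.287 without XYF F7 and XXM 8, so that this relation rests on those mice. Siglec1 with Marco gave r = -0.000232 (permutation p = 0.999; rho = 1.11e-17, permutation p = 1), and 0.124 without XXF F1 and XXF F4. Of the 38 pairs, 35 had an r over 0.5, and 30 of these kept it when the 2 mice farthest from the median of the gene named first were left out, while 5 did not. The other 3 pairs, Siglec1 with Hmox1, Slc40a1 and Vcam1, had an r of 0.351, 0.445 and 0.441. Without XYF F7 and XXM 7 throughout, 22 pairs passed.

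**Figure D4:**
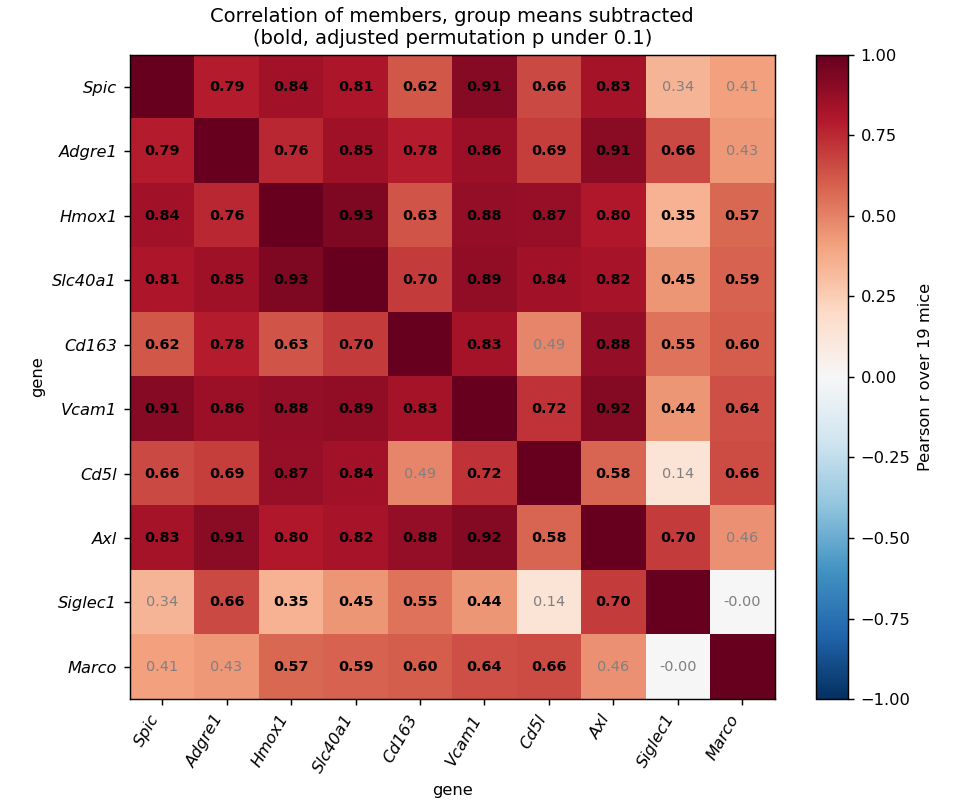
Pearson r between members over 19 mice after subtracting group means, with genes on both axes and color from -1 to 1; bold values have an adjusted permutation p under 0.1. Values reach 0.93 (Hmox1 with Slc40a1), with lower ones such as 0.49 for Cd163 with Cd5l. The row of Siglec1 is the palest, with 0.00 for Marco, but holds 0.70 for Axl.

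The genes outside the members whose levels were most like the mean of the members over 19 mice were Frmd4b (r = 0.955), Slc16a9 (0.952), Igf1 (0.948), Trf (0.948) and Slc45a3 (0.948), followed by Mrc1, Hpgd, Ccr3, Ptgis and Gfra2 (0.937 to 0.928). With group means subtracted they were Slc45a3 (0.956), Slc16a9 (0.954), Itgad (0.944), Frmd4b (0.943) and Igf1 (0.936), followed by Ccdc148, Sdc3, Trf, Ptgis and C6 (0.925 to 0.915). Trf, which encodes transferrin, had a mean RPKM of 74.0, and Mrc1, the mannose receptor, 20.4. These values describe likeness across the same 19 libraries and carry no test.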

How the data were processed

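Splenocyte RNA of 19 FCG mice was sequenced by the authors with paired-end reads, aligned to mm10 with Subread and counted on genes with featureCounts. The authors deposited log2 values of RPKM, whose low values step by the worth of a single read on the log2(RPKM + 1) scale, with 0.0001 listed for a gene without reads. Whole reads and library sizes were recovered from these steps for all 21317 genes with a read, each within 0.05 of a whole number. Values were tested as deposited, with limma 3.58.1 in R 4.3.3 (empirical Bayes with trend, a mean for each of 4 groups, Benjamini-Hochberg adjustment over 14186 genes). The labels tell that the libraries are of separate mice, and within groups the chi-square per gene between libraries was at least 20.7. The largest correlation between mice was 0.99.

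Members and gene lists were chosen with earlier results of these data known. Named are the members, the called genes and the 4 most abundant genes of each list, the 10 genes most like the members, and genes that check the labels. Correlations used 100000 resamples within groups. Alternatives were a pseudocount of 0.1, no filter or an RPKM of 1 (13026 genes), median ratio rescaling, limma-voom on recovered reads, the 2 compared groups alone, an adjusted p of 0.05, no fold threshold, group means not subtracted for correlations, and each mouse left out. Leaving out XYF F9 with XYM 9, and XYF F7 with XXM 7, was added after seeing the data. A planned comparison of protein sequences was not run. Scripts were tested on simulated data. Other tools were scipy 1.17.1, pandas 2.3.3, numpy 2.4.6 and matplotlib 3.10.9 in Python 3.11.15.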

Additional observations from a re-analysis of the deposited data

Results flagged for a closer look

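Of 40 sets of a member and a group, 4 held a mouse far from the others of its group, and of 60 sets of a summed list and a group 5 did. Chance gives about 1 in 20 for independent sets. These sets are not independent, since members vary together over mice, so the counts cannot be weighed against chance. XYM 9 was the lowest of its group for Spic (RPKM 16.6, the others 32.1 to 39.5), Vcam1 (38.6, the others 65.7 to 77.4) and Axl (13.3, the others 21.9 to 26.8). XYF F7 was the highest of its group for Cd163 (5.53, the others 2.18 to 2.47). Among list sums, XYM 12 was the lowest XYM mouse for engulfment genes (636). XXF F2 was the highest XXF mouse for partners of the members (1460, the others 1300 to 1340). XXM 8 was the highest XXM mouse for type I interferon response genes (401, the others 257 to 285). For monocyte genes, XXF F2 was the lowest XXF mouse (259) and XYF F9 the highest XYF mouse (1560). Nr4a1 is listed here with the monocyte genes, but the cells it comes from cannot be told in a bulk sample. Its difference between XX and XY mice differed between females and males by -0.901 on the log2 scale, a call by limma. This call was kept in 6 of the 19 refits that left out a mouse each, and lost without XYF F7 and XXM 7.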

How the results depend on the processing

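The calls of Cd163 and Marco between XX and XY mice over both gonadal sexes were kept under every alternative run, and the count lay between 2 and 3 with each mouse left out. No direction of a called member turned. In females the 3 calls were 0 with the 2 compared groups alone, with no filter on low values and at an adjusted p of 0.05, and 1 without XYF F9 and XYM 9. With each mouse left out they lay between 0 and 3, changing by over 1.5 times without XXF F1, F2, F3, F4 or F5, XYF F6 or F9, XXM 6 or XYM 12, 13, 15 or 16. In males the 2 calls were 0 with the 2 compared groups alone and at an adjusted p of 0.05, and 1 with no filter and without XYF F7 and XXM 7. With each mouse left out they lay between 0 and 3, changing by over 1.5 times without XXF F2, F4 or F5, XYF F6 or F8, XXM 2, 5, 6 or 7 or XYM 9, 12, 13 or 16. Between males and females the 2 calls were 7 with no fold threshold, where 18.1% of all genes were lower in males. They were 1 without XYF F7 and XXM 7 (7.62% of all genes called). Under median ratio rescaling they were 3, as without XYF F9 and XYM 9 (9.09% of all genes called). With each mouse left out they lay between 1 and 5. The count was 1 without XXF F4, XXM 5 or 6, XYF F7 or XYM 9, and 3 without XXF F5, XXM 7 or 8, XYF F9 or XYM 12 or 15. It was 5 without XYF F8, where 375 of all genes were called higher and 814 lower in males. For the difference of XX effects between females and males the count of 0 was 1 without XYF F9 and XYM 9, where 5.51% of all genes were called. It was 1 without XXF F3, where 897 of all 14186 genes were called in the positive direction and 300 in the negative. It was also 1 without XYM 15, with 564 and 244 of all genes. Of the member pairs, 38 of which passed, 22 did without XYF F7 and XXM 7, and between 27 (without XYF F7) and 40 with each mouse left out. The cause was not tested. No paired analysis was possible because XX and XY groups with the same gonads share no replicate number, and the labels number females (with an F) and males separately. Siglec1, on as few as 20 reads, is the member whose precision depth limits most.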

Other observations

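Of 14 type I interferon response genes 6 were called lower in males, Isg15 (-1.66), Rsad2 (-1.47), Ifit1 (-1.05), Oasl2 (-0.78), Oas1a (-0.76) and Irf7 (-0.68). Irf7 was under the fold threshold without XYF F9 and XYM 9 (-0.58). Oasl2 (-0.66) was lower in XX than in XY mice over both gonadal sexes, also without either set of mice, but not without XYF F9, XXM 2 or XYM 13 alone. Without XYF F9 and XYM 9, 4 interferon response genes were called lower in XX over both (Oasl2, Mx1, Irf7 and Ifi44). Their summed RPKM was highest in XYF F6 (1086) and lowest in XXM 2 (257). Of 9 dendritic cell genes 4 were called higher in males, Siglech (1.25), Flt3 (1.02), Cd209a (0.86) and Clec9a (0.64). Of 9 monocyte genes tested, Ly6c2 was lower in XX mice over both gonadal sexes (-0.75, adjusted p = 0.0422 from limma). Without XYF F9 and XYM 9, the mice with the highest monocyte sums, it was under the fold threshold (-0.48, adjusted p = 0.0208), and the median of the monocyte genes moved from -0.27 to 0.01. Among 7 plasma cell genes Irf4 was higher in males, and Tnfrsf17 lower in XXF than in XYF mice (-0.92), not called without XYF F9 and XYM 9 (-0.96, adjusted p = 0.11). Among 6 platelet genes Gp9 was lower in XXF than in XYF mice (-0.85), not called without XYF F9 and XYM 9 (-0.74, adjusted p = 0.124). Single mice ended both calls, for Tnfrsf17 XXF F1, F4 or F5 or XYF F6 or F9, and for Gp9 XXF F5 or XYF F6 or F9. Of the 5 stroma and endothelium genes tested, limma called 0 in any comparison, while for males against females limma-voom called 1 higher and 1 lower, as many as had an unadjusted p under 0.05 in limma. Pecam1 was the most abundant (63.4).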
